A study of Drosophila melanogaster with 2 samples.

Results

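Of the 3304 peaks of CG5953-eGFP on the main chromosome arms of the fly embryo, 203 (6.14%, Clopper-Pearson 95% interval 5.35 to 7.02) had their summit inside an annotated exon and more than 500 bp from every annotated transcription start site (TSS). These exonic peaks were taken from the thresholded list drawn from both libraries, by the position of the summit alone, so that neither signal nor sequence entered the choice. The remaining peaks of the list were 1513 within 500 bp of a TSS, called promoter peaks here, 1157 in introns and 431 between genes. A summit in an exon was placed in 1 class, in the order coding sequence, 5' untranslated region (UTR), 3' UTR and exon of a noncoding gene.

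The data are chromatin immunoprecipitation and sequencing (ChIP-seq) of whole Drosophila melanogaster embryos aged 0 to 24 h, collected as 2 biological replicates of a single group. Both replicates came from the strain CG5953-GFP, transgenic flies with an insertion that targets the gene CG5953 and makes a fusion of its product to enhanced green fluorescent protein (eGFP). The fusion protein was precipitated with an antibody against green fluorescent protein from chromatin sheared by sonication to 200 to 800 bp. The embryos were whole and span all of embryogenesis, so that a site bound in a few cells and a site bound weakly in many cannot be told apart. Peak lists hold neither RNA levels nor reads, and the depth of the libraries is unknown. With 1 group and 2 replicates, no comparison between conditions was possible, and peaks are not replicates. The values below are therefore descriptions, and the intervals cover the counting of peaks only.

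Transcription factors bind short DNA motifs, mostly in promoters and in enhancers that lie in introns or between genes. Exons must also encode protein or RNA, which holds their base composition within bounds, and in flies coding sequence is richer in G and C than the introns and intergenic DNA around it. Many long noncoding RNAs (lncRNAs) of the fly are single-exon transcripts, so most of their length counts as exon. The peak files give a signal value for each peak in an unstated unit, so that only levels relative to other peaks of the same list can be read from it.

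Sequence at the summits differed between the peaks in coding sequence and those in lncRNA exons. The 29 bases centred on the summit are printed below for 5 of the strongest coding-sequence peaks, without that of otp, and then for the strongest peak of 5 lncRNA hosts. They are read from the Release 6 genome (dm6), forward strand, 5′ to 3′, and capitals mark G and C.
Pde1c, coding, chr2L:11816563-11816591: CCGCaGCGCCatCtGCCGGCtCCGCaGCt
l(3)mbn, coding, chr3L:6124829-6124857: attCGCtGtCaCtCCaGaaattCCCGGGG
wb, coding, chr2L:14308434-14308462: taaatatCaatataaGCaGGCaattCaat
Mkrn1, coding, chr3L:21533003-21533031: aGaaGCGGCaaaGttCCCCaaaGCGGCaG
CG6163, coding, chr3L:11362815-11362843: CGGCtGtGGtGGaCGGtaGtGGtGCaaGt
lncRNA:CR46035, noncoding exon, chr3R:17704395-17704423: tattGtttCtGatCaaGtCaCtCatCaaa
lncRNA:CR44619, noncoding exon, chrX:12752364-12752392: aGaaaataCaaaaaaatatCGCaCatCCC
lncRNA:CR43334, noncoding exon, chr3L:634803-634831: atttaatGGaaGGaatGtaattttGtata
lncRNA:CR44603, noncoding exon, chr2L:1624966-1624994: GtttGCtaGGCaaaaCatatGaaGttCaa
lncRNA:Vinr, noncoding exon, chrX:12750968-12750996: CCCaCCatCtattttCtattCatttaaGt

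The coding windows held 22 (Pde1c), 16 (l(3)mbn), 7 (wb), 17 (Mkrn1) and 18 (CG6163) G or C bases of 29, while the lncRNA windows held 6 to 10. The window in wb, with its A and T run, was the exception among these coding windows of 29 bases. Over the wider span within 100 bp of the summit, l(3)mbn was instead the lowest of these 5 coding peaks. Its G and C was 38.3% there, against 52.7% in wb, 60.7% in CG6163, 62.7% in Pde1c and 65.2% in Mkrn1. CG6163 lies outside the set of genes chosen for naming and is shown because its coding peak came next in signal.

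The 203 summits were divided unequally among the exon classes. Coding sequence held 129 (63.5%, 56.5 to 70.2), 5' UTRs 23, 3' UTRs 23 and noncoding exons 28. Coding sequence held the majority in this list and, at 53.7% of 162 exonic peaks, in the conservative list of both libraries. It did not in other stricter selections. Its share was 37.6% of the 85 exonic peaks with the highest score, 1000. On the list of a single replicate it was 33.9% to 40.6% of the 59 to 64 exonic peaks. Exon sequence more than 500 bp from a TSS amounted to 26.4 Mb, of which 18.6 Mb (70.7%) was coding, 0.812 Mb 5' UTR, 5.94 Mb 3' UTR and 0.987 Mb noncoding exon. Per Mb of this eligible sequence there were 6.92 peaks in coding sequence and 3.88 in 3' UTRs, against 28.3 in 5' UTRs and 28.4 in noncoding exons. The density of the whole list over the whole arms was 24.7 peaks per Mb. Coding sequence and 3' UTRs thus held fewer peaks per Mb than the arms as a whole. The density of the arms counts promoter peaks and sequence near TSSs, which the exon densities leave out. It is therefore not a like reference for any of the exon classes, coding sequence and 3' UTRs included. The density of sequence outside exons and away from TSSs was not computed. By arm, the exonic peaks numbered 35 on 2L, 39 on 2R, 51 on 3L, 46 on 3R and 32 on X. Arm 4, with 6 peaks in all, had none. Their density ran from 6.34 per Mb of eligible exon on X to 10.1 on 3L.

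Exonic peaks in coding sequence were weak and narrowly spread. Their median signal was 58.8 (quartiles 54.1 and 65.0), and 108 of the 129 lay between 50 and 75. Medians were 67.2 for 5' UTR peaks, 74.4 for 3' UTR peaks and 99.5 for noncoding-exon peaks. The median was 78.7 over all peaks, 83.5 over promoter peaks, 79.3 over intronic peaks and 75.4 over intergenic peaks. A signal over 100 was reached by 4 of 129 coding peaks (3.10%), by 14 of 28 noncoding-exon peaks and by 33.6% of all peaks. Noncoding-exon peaks were thus the class of exonic peaks above the whole list in median, and coding peaks were the lowest class.

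**Figure D1:**
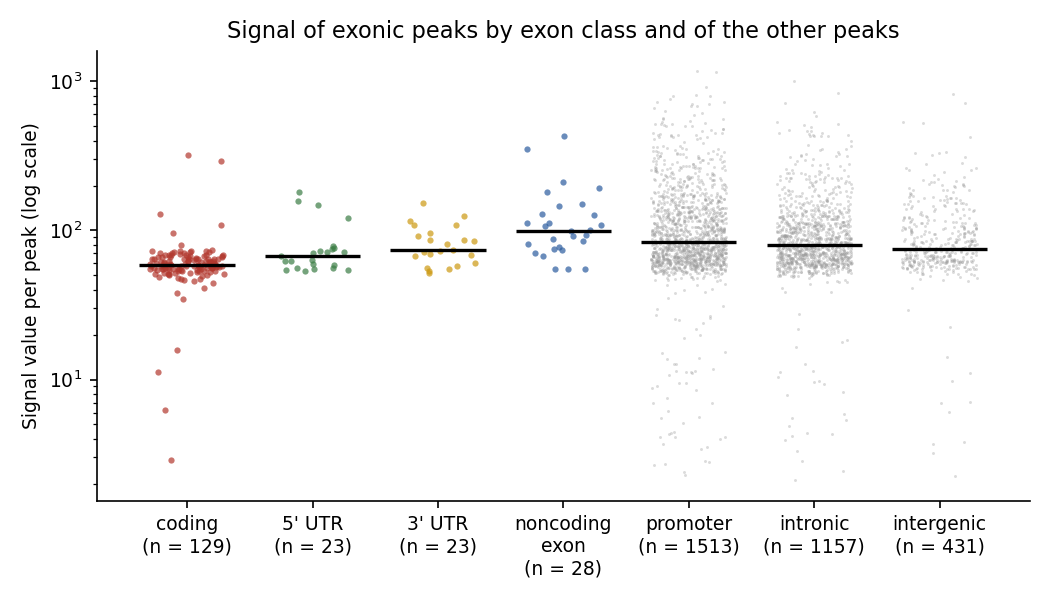
Signal value of each peak on a log axis, by exon class for the 203 exonic peaks and by location for the other peaks; each point is a peak and each black line a median. Coding peaks crowd around their median of 58.8, with otp and Pde1c far above, while noncoding-exon peaks have a median of 99.5.

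In the replicates taken singly, coding peaks were again the lowest class and noncoding-exon peaks the highest. A peak's value in a replicate is the signal of the strongest peak of that replicate's ranked list that overlaps it. Its median was 28.8 in replicate 1 and 29.2 in replicate 2 for coding peaks. It was 57.3 and 48.9 for noncoding-exon peaks, and 43.4 and 39.0 for all peaks. For 5' UTR peaks the medians were 34.0 and 32.9, and for 3' UTR peaks 46.8 and 36.0. The 3' UTR peaks thus lay above the median of all peaks in replicate 1 and below it in replicate 2 and in the joint list. The larger of a peak's replicate signals exceeded the smaller by a median factor of 1.32 among exonic peaks and 1.33 among all peaks. Exonic peaks therefore did not stand out in how far the replicates lay apart.

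**Figure D2:**
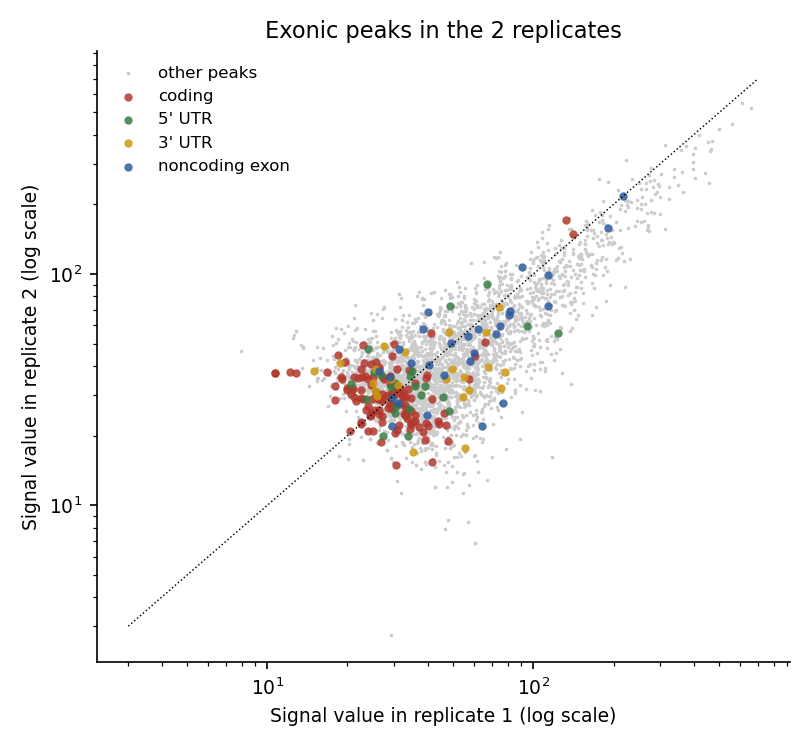
Signal of each peak in replicate 1 against replicate 2, on log axes, with exonic peaks coloured by class, other peaks in grey and the line of equal signal dotted. Most coding peaks sit in the lower left of the cloud, near their medians of 28.8 and 29.2, and the noncoding-exon peaks reach 217 in both replicates.

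Each replicate also had its own thresholded list, which shows whether a peak passed in that library alone. These lists come from the same libraries as the joint list, so that overlap is no independent repeat. Of the exonic peaks, 50 (24.6%) overlapped the list of replicate 1 by at least 1 bp, against 56.0% of all peaks, and 54 (26.6%) overlapped that of replicate 2, against 47.6%. Both lists held 32 exonic peaks (15.8%, 11.0 to 21.5), against 36.0% of all peaks. The coding peaks lowered this share, with 5 of 129 in both (3.88%, 1.27 to 8.81). Also in both were 5 of 23 5' UTR peaks, 7 of 23 3' UTR peaks and 15 of 28 noncoding-exon peaks (53.6%, 33.9 to 72.5). Of the exonic peaks with a score of 1000, 37.6% were in both. The same share over all peaks of that score was not computed, and the 36.0% is no like reference for it. Neither list held 103 coding peaks (79.8%), against 32.4% of all peaks. The conservative list of both libraries overlapped 119 exonic peaks (58.6%), against 80.2% of all peaks, and it overlapped 56 coding peaks (43.4%) and 26 of 28 noncoding-exon peaks.

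Signal and repeat moved together, and at like signal the exonic peaks lay close to the other peaks. In the lowest quartile of signal over the whole list, up to 62.7, lay 85 of the 129 coding peaks, and 38 more lay in the second quartile, up to 78.7. The share in both replicates' lists was 1.18% for coding peaks and 1.52% for peaks outside exons in the lowest quartile. In the second quartile it was 0 of 38 coding peaks, which allows a share of up to 7.89%, and 3.78% outside exons. UTR and noncoding-exon peaks of the third quartile were in both lists in 55.0% of cases (31.5 to 76.9), against 43.3% outside exons. In the top quartile, all 3 coding peaks and all 15 other exonic peaks were in both lists, as were 95.4% of the peaks outside exons. Overlap with the conservative list at like signal was lower for coding peaks, at 28.2% against 44.6% in the lowest quartile and 71.1% against 81.8% in the second.

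**Figure D3:**
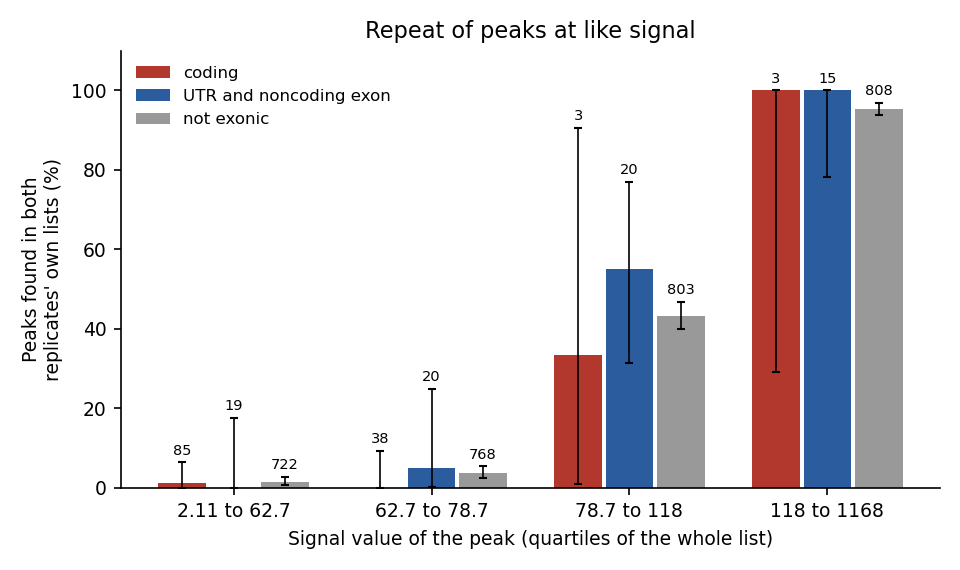
Percentage of peaks found in both replicates' own thresholded lists, by quartile of signal, for coding peaks, other exonic peaks and peaks outside exons; bars are shares, error bars Clopper-Pearson 95% intervals, and the numbers above give the peaks in each bar. In coding sequence the share is 1.18%, 0%, 33.3% and 100% from the lowest quartile to the top, the upper pair from 3 peaks each, and outside exons it climbs from 1.52% to 95.4%.

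The ranked list of both libraries, from which the thresholded peaks were drawn, shows how often a candidate in an exon passed. It held 140819 peaks on the arms, of which 2.35% reached the thresholded list. Of 30603 candidates with a summit in eligible coding sequence, 129 passed (0.422%, 0.352 to 0.501). The share was 0.588% of 3909 candidates in 3' UTRs, 2.17% of 1060 in 5' UTRs and 2.48% of 1129 in noncoding exons. Candidates passed in 6.65% of cases at promoters, 2.24% in introns and 1.45% between genes. Coding candidates were thus numerous and seldom passed, although those that missed had a median signal of 20.7, close to the 19.3 of all that missed.

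The strongest exonic peak lay in lncRNA:CR46035, a single-exon lncRNA within an intron of osa, which encodes a subunit of the Brahma chromatin remodelling complex (chr3R:17704310-17704497). Its signal was 427, and 217 in each of the replicates. The next was in the first exon of lncRNA:CR44619 (chrX:12752271-12752438), with a signal of 349 and replicate values of 191 and 158. A further peak in the last exon of the same lncRNA had 149, with 81.5 and 69.1. The neighbouring lncRNA:Vinr on X had a peak of 180 (chrX:12750932-12751063), with 90.4 and 107 in the replicates. All 4 of these peaks were in both replicates' lists.

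The coding peaks of otp and Pde1c ranked as the third and the fourth of all exonic peaks, far above the rest of their class. The gene otp encodes a homeodomain transcription factor of the developing nervous system, and its peak lay in the coding part of the last exon (chr2R:20884530-20884634), 4661 bp from the nearest TSS. Its signal was 320, with 133 and 172 in the replicates. Pde1c encodes a cyclic nucleotide phosphodiesterase, and its peak, also in the last exon (chr2L:11816510-11816640), had 290, with 141 and 149. After them came l(3)mbn at 128 (65.5 and 50.9), in an internal exon of 63 bp, and wb, a laminin alpha chain gene, at 109 (60.5 and 44.3). The coding peak of Mkrn1, which encodes a makorin RING finger protein, had 95.5 (57.2 and 35.1) and was not in both replicates' lists. The last coding peak in both lists, in PAN3, a deadenylase subunit gene, had a signal of 2.87 in the joint list and overlapped an intronic peak of 97.2 whose summit lay 218 bp away. Its replicate values of 41.3 and 55.6 belong to whichever replicate peak overlapped most strongly, so that PAN3 cannot be told apart from its neighbour.

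Weak exonic peaks of this kind were few. Overlap with another peak of the list was found for 8 of the 203 (3.94%, against 5.75% of all peaks). All 4 exonic peaks with a signal under 20, in Socs36E, a gene for an inhibitor of JAK/STAT signalling, in Mocs1, in BuGZ and in PAN3, had a stronger neighbour 203 to 218 bp away. In Mocs1, a molybdenum cofactor synthesis gene, the stronger neighbour at 55.6 was a coding peak of the same gene, so its pair of exonic peaks is a pair of overlapping intervals. The replicate values of both Mocs1 peaks, 10.7 and 37.4, come from the same replicate peaks.

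Among 5' UTR peaks, the strongest was in Fbl6, which encodes an F-box protein, at 181, with 124 in replicate 1 and 55.5 in replicate 2. It was followed by cic, which encodes the HMG-box repressor Capicua, at 157 (67.0 and 90.2), and by eas, which encodes ethanolamine kinase, at 149 (94.7 and 59.7). Mef2, the muscle differentiation factor gene, had a pair of 5' UTR peaks, at 120 (48.5 and 73.0) and 59.6 (29.1 and 32.6). Of the 23 summits in 5' UTRs, 15 (65.2%) lay in a first exon, against 35.3% of windows spread evenly over eligible 5' UTR sequence. The replicates disagreed by more than 2-fold at Fbl6, while at cic, eas and Mef2 they lay closer.

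Among 3' UTR peaks, CG7872 led with 152 (74.5 and 72.0), then by, which encodes the integrin adhesion protein tensin, with 125 (66.4 and 56.4), and NetB, a netrin gene for an axon guidance cue, with 115 (75.3 and 32.2). CG7872 and by were in both replicates' lists, and NetB was not. The others in both lists were APC7, an anaphase-promoting complex subunit gene, at 96.2, CG33307 at 92.2, REG, a proteasome activator gene, at 86.4, scf at 86.3 and Tctp at 84.4. Weaker in replicate 2 were stas at 108 (67.2 and 39.7) and CG5895 at 108 (78.5 and 37.5), neither of which was in both lists. Replicate 1 gave the higher value at each of these 10 genes except APC7 (48.3 and 56.1).

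The remaining lncRNA hosts among the 25 strongest exonic peaks were lncRNA:CR43823 at 146 (81.1 and 66.6), lncRNA:CR45048 at 128 (74.7 and 59.4), lncRNA:CR42719 at 113 (56.8 and 54.1), lncRNA:CR45345 at 111 (40.2 and 68.8) and lncRNA:CR45128 at 108 (62.0 and 57.6). All 5 were in both replicates' lists. Of these, lncRNA:CR45048 lies within an intron of RhoGAP92B and lncRNA:CR45128 within an intron of Adf1. Of the 28 noncoding-exon peaks, 7 lay in an intron of another gene, as did 27.4% of windows spread over eligible noncoding exon. Such a summit is exonic for the lncRNA and intronic for the gene around it.

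The 203 peaks lay in 190 host genes, 170 protein-coding and 20 noncoding, and 8 hosts had more than 1 exonic peak. The first of these was lncRNA:CR43334 (chr3L:628435-643900), which contains mir-ban, the gene of the growth-promoting miRNA bantam. Its longest transcript is a single exon of 15466 bp, and it has further annotated TSSs 35 and 11279 bp from its start. Its 6 exonic peaks lay 1797, 5267, 6382, 8155, 12275 and 13156 bp from its start. The signals, in that order, were 81.0, 127, 210, 87.3, 108 and 55.3. The replicate values were 31.3 and 47.4 for the first, 72.2 and 55.0 for the second, 114 and 99.3 for the third, 63.9 and 22 for the fourth, 59.7 and 45.3 for the fifth and 29.5 and 29.1 for the last. The second, the third and the fifth were in both replicates' lists. The summit nearest to mir-ban, whose hairpin starts at 13773 bp, was the weakest, 617 bp upstream of it. A further 3 promoter peaks, at 59.7, 56.1 and 74.7, lay along the transcript or just before it, and an intergenic peak of 219 lay just beyond its end.

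**Figure D4:**
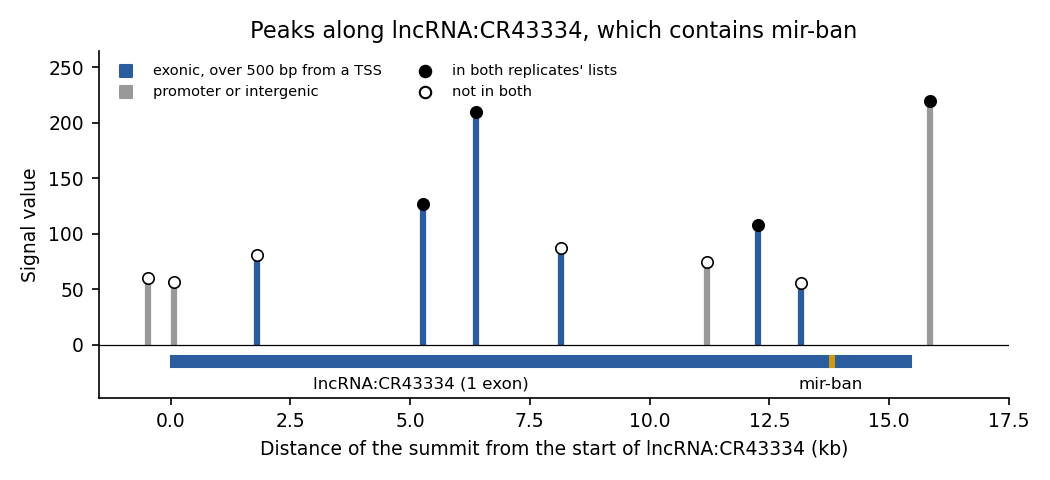
Signal of each peak against the distance of its summit from the start of lncRNA:CR43334 in kb, with exonic peaks in blue and promoter or intergenic peaks in grey; filled heads mark peaks in both replicates' lists, and the bar below shows the lncRNA with mir-ban. The strongest exonic peak, at 210, lies 6382 bp from the start and the weakest, at 55.3, just before mir-ban.

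The next host by number was lncRNA:CR44603 with 3 exonic peaks, at 192 (114 and 72.7), 92.2 (38.3 and 57.7) and 75.3 (26.4 and 38.1). The first of them was in both replicates' lists. The gene klar, which encodes a nuclear envelope protein for nuclear and lipid droplet movement, had a coding peak at 71.6 and a 5' UTR peak at 63.5. Orp8, an oxysterol-binding protein gene, had a 5' UTR peak at 74.9 and a coding peak at 67.6 in the same exon. The bHLH transcription factor gene crp had a 3' UTR peak at 69.4 and a coding peak at 51.8. None of the peaks in klar, Orp8 and crp was in both replicates' lists. The gene CG5953 itself hosted no exonic peak.

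Host genes were more often bound at a promoter than other genes were. A promoter peak was found at 47 of the 190 hosts (24.7%, 18.8 to 31.5), against 11.8% of the 14624 genes with eligible exon sequence and 12.6% of the protein-coding ones. Hosts were also longer, with a median length of 4.94 kb against 2.15 kb over those genes. The part of gene length in the promoter share was not tested.

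In 9 lists of known pathways and families, 199 genes matched by symbol had eligible exon sequence. Of these, 5 carried an exonic peak (2.51%, 0.821 to 5.77), against 1.3% of all genes with such sequence. None of these 5 peaks was in both replicates' lists. The Hox gene Ubx had a coding peak at 72.0 (44.3 and 22.4) in its last exon. The ribosomal protein genes RpL6 and RpL24 had coding peaks at 64.2 (34.6 and 22.5) and 57.6 (23.4 and 25.7), 2 of 71 such genes on their list. The ecdysone receptor gene EcR had a 5' UTR peak at 58.6 (20.6 and 33.4), and Tm2, a tropomyosin gene of muscle, a 3' UTR peak at 53.8 (25.9 and 29.6). The lists of Polycomb and Trithorax, Notch, EGFR and FGFR, Wnt and Hedgehog, and neuronal genes, with 21, 11, 18, 13 and 12 matched genes, had no host by symbol. The EGFR and FGFR list held Raf under an older symbol that the annotation lacks. Its 5' UTR peak at 56.1 (39.1 and 32.7) was therefore not counted, and Raf was named after its values were seen. With hosts at 1.3% of all genes, these counts are not read as results about the pathways.

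Exonic peaks lay a median of 1197 bp from the nearest TSS. The farthest was in the last exon of Lim1, a LIM-homeodomain gene, at 27102 bp, with a signal of 62.1 (33.5 and 23.8). It was followed by the 3' UTRs of pros, a homeodomain gene of neural fate, at 14942 bp (signal 71.6), and raskol, which encodes a Ras GTPase-activating protein, at 13384 bp (57.7). Next were coding peaks of Itpr, the inositol trisphosphate receptor gene, at 11355 bp (64.7) and InR, the insulin receptor gene, at 9882 bp (55.4). None of these 5 was in both replicates' lists. Just inside the limit of 500 bp lay the weaker Mef2 peak at 501 bp and lncRNA:CR44517 at 503 bp, with a signal of 98.3. Just outside it lay CG15247 at 500 bp with 112 and Pdp1 at 496 bp with 25.1.

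Within their genes, coding summits lay in first and last exons more often, and in internal exons less often, than coding sequence in general. First exons held 17 of 129 (13.2%), against 4.60% of windows spread evenly over eligible coding sequence, internal exons 48.1% against 62.7% and last exons 34.9% against 27.2%. The median position was 55.4% of the way along the gene, against 65.6% of those windows. The whole peak interval was exonic for 144 of the 203 peaks. For 26 peaks (12.8%, against 7.99% of windows of eligible exon), some transcript of the host gene that spans the summit had no exon there. The classes differed, and 13 of the 26 were 5' UTR peaks (56.5%, against 34.6% of 5' UTR windows). The share was 7.75% against 6.08% in coding sequence and 13.0% against 10.4% in 3' UTRs. In noncoding exons it was 0% against 9.07%. Transcripts that start or end elsewhere in the gene were not counted.

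Base composition separated the classes. Within 100 bp of the summit, coding peaks had a median of 57.2% G and C, above the 52.2% of eligible coding windows and the 54.2% of ranked coding candidates that missed the threshold. Peaks in 5' UTRs had 47.3% against 42.8% in eligible windows and 46.3% among candidates that missed. Peaks in 3' UTRs, at 38.3%, lay above their windows at 34.8% and below the candidates that missed at 40.8%. Noncoding-exon peaks had 37.8% against 42.8% in eligible windows and 46.8% among ranked candidates that missed, and so lay below both. All peaks together had 38.3%, promoter peaks 38.3% against 47.8% among candidates that missed, and intronic peaks 37.3% against 44.3%. In median, thresholded peaks were thus richer in G and C than the candidates that missed in coding sequence and 5' UTRs. They were poorer in 3' UTRs, noncoding exons, promoters and introns. The UTR medians rest on 23 peaks each. Medians of coding and UTR peaks lay within the quartiles of the candidates that missed, and those of noncoding exons, promoters and introns lay below them. Of the coding peaks, 118 of 129 were above 50%, against 3 of 28 in noncoding exons.

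**Figure D5:**
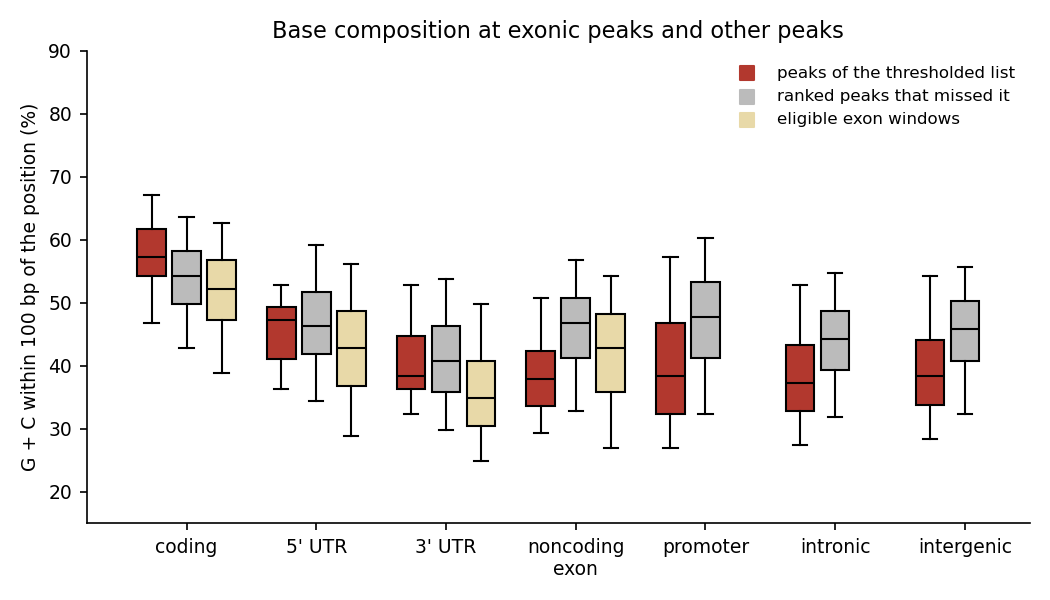
G and C within 100 bp, in percent, for thresholded peaks, ranked candidates that missed the threshold and, for exon classes, windows of eligible exon; boxes show quartiles with the median, whiskers the 5th and 95th percentiles. Coding peaks have a median of 57.2%, above both references, and noncoding-exon peaks one of 37.8%, below both.

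The palindromic E box CAGCTG, bound by many bHLH factors, occurred within 100 bp of 39 of 203 exonic summits (19.2%, 14.0 to 25.3), against 9.75% of all peaks and 11.8% of eligible exon windows of the same length. In coding sequence it occurred at 28 of 129 (21.7%, 14.9 to 29.8), against 14.4% of coding windows. Coding windows with a G and C content between the quartiles of the coding peaks, 54.2% to 61.7%, held it in 18.9% of cases, within the interval of the peaks. Outside coding sequence, 11 of 74 exonic peaks held it (14.9%, 7.66 to 25), against 5.49% of the windows. Most of these windows were 3' UTR, unlike the peaks. By class it was at 3 of 23 5' UTR, 3 of 23 3' UTR and 5 of 28 noncoding-exon peaks. The windows of these classes held it in 9.58%, 4.51% and 8.07% of cases, and none were matched for G and C. Printed below, 28 bases each from the same genome and strand with the motif in capitals, are the copies nearest the summit in 5 of the strongest coding peaks that hold it, genes of which all but Pde1c were chosen after their values were seen.
Pde1c, chr2L:11816576-11816603: tgccggctccgCAGCTGgctcactctgc
agt, chr3R:6659068-6659095: atgcacccaacCAGCTGtggctgaccaa
ttk, chr3R:31727902-31727929: ccactacacccCAGCTGcagcgcatcca
CG12268, chr3R:23943984-23944011: tccaggaggctCAGCTGactgctcatct
scrib, chr3R:26567136-26567163: ggcagcaacagCAGCTGtggtggctgag

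The copy in Pde1c lay 13 bp from the summit and was 1 of 2 in its window. That in ttk, a zinc finger repressor gene, lay 24 bp away and was also 1 of 2, and that in scrib, a cell polarity gene, lay 31 bp away. In CG12268 and agt the distances were 44 and 56 bp. The signals of these peaks below Pde1c ran from 68.6 in scrib to 73.6 in agt.

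Motifs made of A and T were scarce in coding peaks. The TATA box TATAAA was at 15 of 203 exonic peaks (7.39%, 4.19 to 11.9), against 28.0% of all peaks and 14.1% of exon windows. Its share relative to exon windows, 0.523, was 0.915 among exonic peaks with a score of 1000. None of the 129 coding peaks held it, which allows a share of up to 2.33%, against 6.79% of coding windows and 1.35% of those of like G and C. The homeodomain core TAATTA was at 1 coding peak (0.775%), against 3.03% of coding windows and 0.751% of those of like G and C. Outside coding sequence, TATAAA was at 15 of 74 exonic peaks (20.3%) and TAATTA at 11 (14.9%), against 31.9% and 16.3% of the windows, which were mostly 3' UTR. In 5' UTRs, 3' UTRs and noncoding exons, TATAAA was at 17.4%, 30.4% and 14.3% of peaks, against 19.7%, 34.9% and 23.9% of windows. TAATTA was at 21.7%, 4.35% and 17.9% of peaks, against 11.4%, 17.4% and 13.7% of windows.

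Among the other motifs, the Pho core GCCAT was at 64 coding peaks (49.6%, 40.7 to 58.5), against 42.3% of coding windows and 46.3% of those of like G and C. The GAGA factor motif GAGAGAG was at 6 exonic peaks (2.96%), against 5.54% of all peaks and 1.63% of exon windows, and 5 of the 6 were outside coding sequence. Runs of at least 4 CAG units were at 5 exonic peaks, all in coding sequence (3.88%, 1.27 to 8.81), against 1.95% of coding windows and 3.11% of those of like G and C. The DREF motif TATCGATA and the Grainyhead motif AACCGGTT were at none of the 203, which allows a share of up to 1.48%. They were at 2.39% and 0.212% of all peaks, and at 0.265% and 0.12% of exon windows. A count of 0 therefore does not set the exonic peaks apart from exon sequence in general. All motifs were searched on both strands. A match is a run of letters and not a measured site.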

How the data were processed

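ChIP-seq peaks of CG5953-eGFP from 2 biological replicates were analysed. In every list the authors deposited a signal value per peak, in an unstated unit, and a score that rescales the irreproducible discovery rate (IDR), which reflects how peak ranks repeat between lists. The −log10 of the IDR stands in the deposited ranked lists. Lists were made per replicate and from both libraries, on dm6, per the text files deposited with them. The aligner is not given in the sources used here, nor is the peak caller. The main list held 3305 peaks, with a lowest score of 830 and an IDR of at most 0.01, and 1 peak on an unplaced scaffold was left out.

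Summits were placed on the Ensembl annotation (release 115, BDGP6), without pseudogenes and transposable elements, and on the Release 6 genome, which share dm6 coordinates. Eligible exon was cut into windows of 201 bp, with every 10th used for position in the gene. Of the peaks, 93.3% had the summit within 1 bp of the midpoint, and 197 of the 203 exonic intervals were 296 bp wide, so summits are placed no more finely than that. Intervals are Clopper-Pearson, 95%, and limits for a count of 0 are 3 counts of the total.

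The members, gene lists and 19 motifs were chosen with earlier results of these data known. Genes named are hosts of the 25 strongest exonic peaks, of the strongest 3 per class and of the 10 strongest in both replicates, genes with 2 or more exonic peaks, the 5 farthest from a TSS, those at the limit of 500 bp, bound list members and CG5953, with others marked where they appear. Further genes were named after their values were seen where all exonic peaks of a kind are listed. Alternatives were other TSS limits and sets, peak lists, thresholds, replicates left out, overlaps, windows and class order. Scripts used Python 3.11.15, numpy 2.4.6, pandas 2.3.3, scipy 1.17.1 and matplotlib 3.10.9, and were tested on simulated data. No peak list from untagged flies was used here.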

Additional observations from a re-analysis of the deposited data

How the results depend on the processing

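Of 71 alternative values, 52 stayed within 1.5 times the count, or within the spread, of the reported value, and 19 moved. The number of exonic peaks, 203, became 118 with a TSS limit of 1000 bp, 85 with only peaks of score 1000, and 59 to 64 on the list of a single replicate. Their share of all peaks, 6.14%, became 9.11% with a limit of 250 bp, 3.57% with 1000 bp, 7.81% with TSS of protein-coding genes only, 3.62% at score 1000 and 2.99% to 3.86% on a single replicate's list. The coding share, 63.5%, was 53.7% in the conservative list, 37.6% at score 1000 and 33.9% to 40.6% on a single replicate's list, and 50.8% with TSS of protein-coding genes only. The share in both replicates, 15.8%, was 37.6% at score 1000 and 99.0% when their ranked lists stood in for the thresholded ones. The median signal relative to all peaks, 0.791, was 0.803 to 0.932 on a single replicate's list. The TATAAA share relative to exon windows, 0.523, was 0.915 at score 1000, while that of CAGCTG, 1.63, ranged from 1.49 to 1.92. The cause of these moves was not tested. Median G and C of coding peaks stayed between 56.0% and 58.2% throughout. No paired analysis was possible because the series has a single group. The depth of the libraries, which limits how weak a peak can be called, is unknown.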
